A study of Mus musculus with 44 samples.

Results

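The genes described here are 39 genes that act in DNA replication, from the proteins that license origins to the factors that rebuild chromatin behind the fork. They were listed by symbol, with earlier results of these data known. Each was read from the probe set that carried that single symbol, taking the probe set with the highest mean where a gene had several. All 39 were on the arrays, out of 19938 genes tested. The samples were 44 Affymetrix mouse gene arrays of macrophages (MFs) sorted from the tibialis anterior muscle after an injection of cardiotoxin, a venom toxin that kills muscle fibres. CD45+ cells, that is cells of the blood lineage, were taken from the injured muscle and sorted into a Ly6C+ F4/80low and a Ly6C- F4/80high subset, and 150 ng of total RNA went into each array. Untreated WT mice were C57B6/J and gave 4 arrays of day 1 Ly6C+ MFs, 6 of day 2 Ly6C+ MFs, 6 of day 2 Ly6C- MFs and 4 of day 4 MFs labelled Ly6C+. KO mice were C57B6/J, PPARg fl/fl, LysM Cre+ and gave 4, 5, 5 and 4 arrays of the same kinds. The Cre of this strain is driven by the LysM gene (Lyz2) of the myeloid lineage, so the deletion was not confined to MFs. WT mice on rosiglitazone, a synthetic PPARγ agonist, gave 3 arrays of day 2 Ly6C+ and 3 of day 2 Ly6C- MFs. The age of the mice is not given in the sources used here, and no label ties an array to an animal. The series text speaks of 3 animals, while the labels number up to 6 replicates in a group, so some arrays may share an animal. The p-values below measure the spread between these arrays, which may be in part technical, and would then be too small.

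Before a cell divides it copies its genome once. In G1 phase the origin recognition complex, Cdc6 and Cdt1 load the MCM helicase onto DNA. At the start of S phase Cdc45, the GINS complex and Mcm10 switch that helicase on, primase and the polymerases copy the strands, and the clamp Pcna, placed by the clamp loader, holds the polymerases on DNA. Most of these genes are targets of E2F transcription factors, which are released as cells pass from G1 into S phase. MFs in injured tissue derive largely from blood monocytes, which arrive as Ly6C+ cells and later become Ly6C- cells, and tissue MFs can also divide in place.

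The promoters of the genes were searched for the letters that E2F factors are known to bind. RefSeq promoter windows of 300 bases on GRCm38.p6 (250 before the start site) were given for 33 of the 39 genes, as 39 windows, and both strands were searched. The E2F letters TTTGGCG or TTTCGCG stood in 15 of these 39 windows (38.5%), against 2.37% of all 32851 windows. The letters TTTGAA of the cell cycle homology region (CHR), an element known from genes of G2 phase and mitosis, stood in 5 windows (12.8%), against 17.9% of all windows. For 21 genes of a mitosis list the order was the other way, with the CHR letters in 16 of 22 windows (72.7%) and the E2F letters in 1 (4.55%). The stretches printed here, with the matched letters in capitals, are from the minus strand at chr1:128359706-128359855 for Mcm6, the plus strand at chr8:75109316-75109407 for Mcm5, the plus strand at chr4:108579388-108579453 for Orc1, the minus strand at chrX:93632246-93632332 for Pola1 and the minus strand at chr6:88898805-88898890 for Mcm2. Mcm6, Mcm5, Orc1 and Pola1 show the E2F letters, and Mcm2 shows the CHR letters without an E2F match.
Mcm6: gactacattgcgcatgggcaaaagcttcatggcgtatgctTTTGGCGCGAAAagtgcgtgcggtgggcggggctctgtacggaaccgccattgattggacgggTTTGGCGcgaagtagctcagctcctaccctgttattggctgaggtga
Mcm5: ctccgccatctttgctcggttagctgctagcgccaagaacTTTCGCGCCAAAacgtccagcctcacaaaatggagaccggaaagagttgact
Orc1: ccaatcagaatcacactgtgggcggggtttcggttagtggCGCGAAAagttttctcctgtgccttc
Pola1: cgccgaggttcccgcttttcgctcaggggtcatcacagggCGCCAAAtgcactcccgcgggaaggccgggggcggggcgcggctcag
Mcm2: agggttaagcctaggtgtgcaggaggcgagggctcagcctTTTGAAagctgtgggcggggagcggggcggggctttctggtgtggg
Mcm6 held 3 E2F matches within 110 bases before its start, of which the 2 farthest from it overlap each other. Mcm5 held 2 that also overlap each other, 153 and 148 bases before its start. E2f2, which went against the other genes in the comparisons below, also held E2F letters (2 matches, both after the start site). By gene, the E2F letters stood in 15 of the 33 genes with a window. Of genes with large differences below, Mcm6 and Pole2 held them and Prim1, Rrm1 and Rrm2 did not. Of genes with small ones, Orc1 and Cdt1 held them and Pcna and Tk1 did not. Whether the letters go with the differences was not tested.

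Some arrays did not carry the markers of their labels. The 2 probe sets shared by Ly6c1 and Ly6c2 lay between 9.21 and 10.94 on the day 4 arrays, which are labelled Ly6C+ F4/80low, against 11.59 to 12.43 on untreated day 1 and day 2 Ly6C+ arrays and 8.61 to 9.98 on untreated day 2 Ly6C- arrays. Adgre1, the gene of the antigen used for the F4/80low and F4/80high gates, averaged 12.27 in both genotypes at day 4, above its 12.08 in WT day 2 Ly6C- MFs. The day 4 arrays are therefore set against both day 2 subsets below. Lyz2, the gene that carries the Cre in KO mice, lay between 9.07 and 9.96 on the 18 KO arrays and at 12.64 or more on WT arrays, except on replicates 1 to 3 of both untreated WT day 2 groups, where it lay between 8.67 and 9.29. Those 6 arrays, labelled WT, thus had Lyz2 at the level of the KO arrays, and whether they are of the labelled genotype or carry the Cre is not known. They are called WT here by their label only. Every value and comparison with untreated WT day 2 arrays holds all 6 replicates of a group unless a set is named, and the counts of the 39 genes called are also given with replicates 1 to 3 and with replicates 4 to 6. Pparg itself differed by 0.00 to 0.24 on the log2 scale between KO and WT (limma, adjusted p of 0.82 or more), and as its probe set is not known to lie in the deleted part, it checks neither genotype. Markers of other cells were compared between WT day 2 Ly6C- and Ly6C+ MFs, where 22.2% of all genes were higher and 23% lower. Of 7 dendritic cell, 9 T and NK cell and 7 myoblast markers none was higher, and 4, 5 and 2 were lower. Summed fibroblast and endothelium markers ran lower in Ly6C- MFs, those of fibroblasts with overlap. Summed B cell markers ran from 8.74 to 9.19 in Ly6C+ and from 8.99 to 9.30 in Ly6C- MFs. Summed neutrophil markers overlapped in WT. In KO they ran from 11.42 to 11.49 in Ly6C+ and from 11.74 to 11.94 in Ly6C- MFs. The summed level of 4 erythroid markers was also higher without overlap. It ran from 8.51 to 8.96 in WT day 2 Ly6C+ and from 9.30 to 9.63 in Ly6C- MFs. Of these 4, Tfrc, the transferrin receptor that dividing cells also use, was the 1 that was higher (1.34), while Klf1 (0.00), Alas2 (-0.16) and Epor (-0.15) did not pass. At day 4, against WT day 2 Ly6C- MFs, 6 of 7 myoblast, 4 of 9 T and NK cell, 4 of 6 fibroblast and 3 of 7 dendritic cell markers were higher. The summed level of the myoblast markers ranged from 9.53 to 9.81 at day 4 and from 8.91 to 9.14 in WT day 2 Ly6C- MFs, and that of 5 B cell markers from 9.66 to 9.80 and from 8.99 to 9.30. The part of other cells in the day 2 subset and day 4 results was not tested. In RNA from a sorted population, more cycling cells and more RNA per cycling cell cannot be told apart.

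The mean log2 level of the 39 genes was low in Ly6C+ MFs of days 1 and 2 and higher in day 2 Ly6C- and day 4 MFs. It averaged 6.97 ± 0.02 (SD, n = 4) in WT day 1 MFs, 7.13 ± 0.07 (n = 6) in WT day 2 Ly6C+ MFs, 7.87 ± 0.16 (n = 6) in WT day 2 Ly6C- MFs and 7.85 ± 0.01 (n = 4) in WT day 4 MFs. KO MFs had means of 6.96 ± 0.05, 7.15 ± 0.07, 7.88 ± 0.07 and 7.85 ± 0.15 in the same order. On rosiglitazone the means were 7.08 ± 0.05 in Ly6C+ and 7.93 ± 0.18 in Ly6C- MFs (n = 3 each). Every Ly6C- array of day 2 and every day 4 array lay above every untreated or treated Ly6C+ array of days 1 and 2. The step therefore lay between Ly6C+ MFs of days 1 and 2 and both day 2 Ly6C- and day 4 MFs. As the day 4 arrays are labelled Ly6C+, it cannot be assigned to the subset alone. Over the untreated WT groups, 34 genes had their lowest mean at day 1, while 21 had their highest in day 2 Ly6C- MFs and 17 at day 4.

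**Figure D1:**
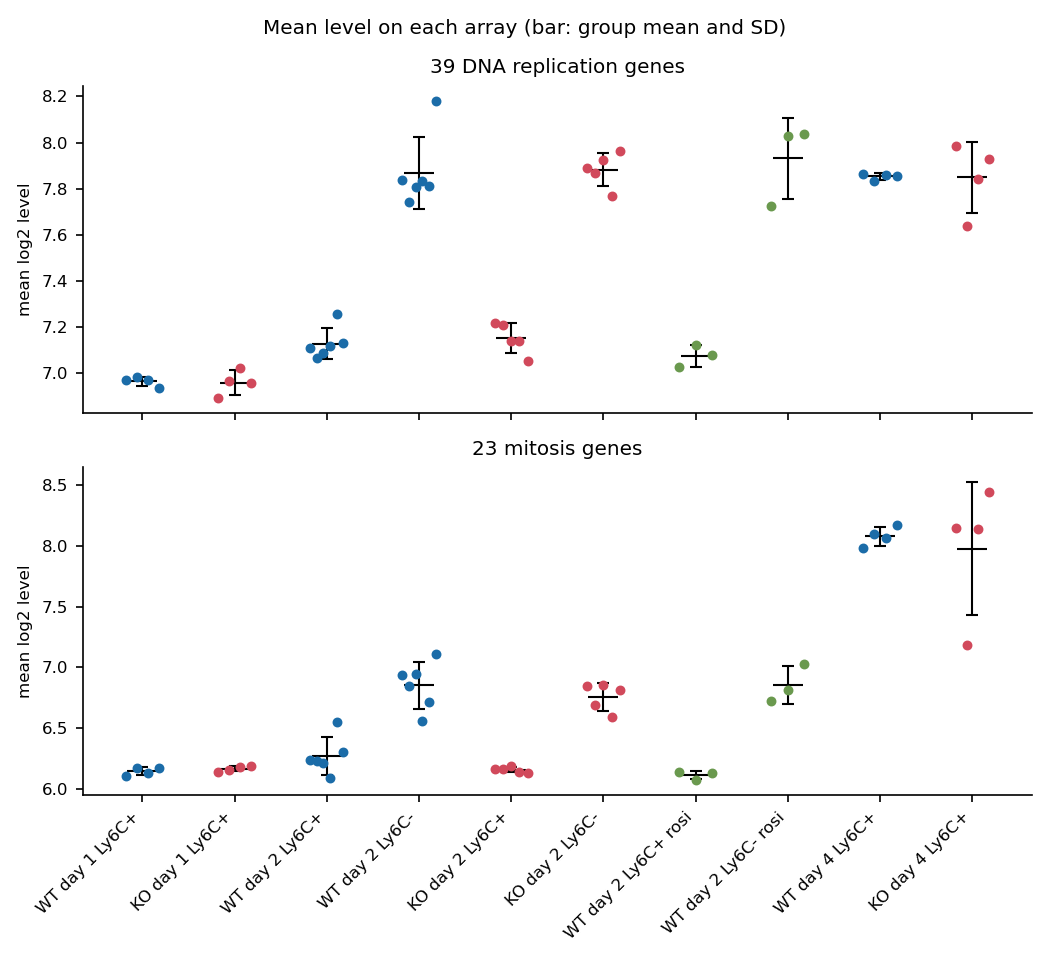
Mean log2 level of the 39 DNA replication genes (top) and of 23 mitosis genes (bottom) on each of the 44 arrays, by group (blue, WT; red, KO; green, WT on rosiglitazone); points are arrays and bars are the group mean and SD. The replication genes stood near 7.9 in day 2 Ly6C- MFs and at day 4 alike, whereas the mitosis genes went from 6.85 in WT day 2 Ly6C- MFs to 8.08 at day 4.

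Ly6C- and Ly6C+ MFs of untreated WT mice at day 2 were compared first, in 1 limma fit over all 44 arrays with Benjamini-Hochberg adjustment over 19938 genes. Of the 39 genes, 38 were higher in Ly6C- MFs and 1 was lower at an adjusted p under 0.05, whereas 22.2% of all genes were higher and 23% were lower. As the genes were listed with earlier results of these data known, this count describes the list and is not an independent test. The median difference of the 39 genes was 0.65 on the log2 scale, against -0.07 over all genes. With WT replicates 1 to 3 alone or 4 to 6 alone, 34 were higher and 1 was lower in each. Cdc6, Gins3, Pcna and Tk1 did not pass with replicates 1 to 3, and Orc1, Pola2, Ccne2 and Tk1 did not with replicates 4 to 6. The split of all genes depended on scaling, since after each array's median was subtracted 5150 genes were higher and 2513 lower in place of 4419 and 4588, while the counts of the 39 genes stayed at 38 and 1.

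The MCM helicase, the motor that unwinds DNA at the fork, held the gene with the largest difference. Its 6 subunits had a median difference of 1.09, where the 7 polymerase and primase genes had 1.10. Mcm6 had a lowest, median and highest value of 6.67, 6.79 and 7.15 in WT Ly6C+ MFs and of 8.38, 8.71 and 9.06 in WT Ly6C- MFs. The groups lay more than a log2 unit apart at their nearest arrays, and the difference of 1.90 ± 0.11 (SE, 3.74-fold, adjusted p = 1.22e-17) was the largest of the 39. Mcm2 differed by 1.35, Mcm7 by 1.16, Mcm3 by 1.03 and Mcm4 by 0.80. Mcm5 ran from 7.88 to 8.17 with a median of 7.97 in Ly6C+ MFs and from 8.78 to 9.36 with a median of 8.93 in Ly6C- MFs, a difference of 1.00 ± 0.09 (adjusted p = 1.64e-11). All 6 subunits were higher, and none had overlapping groups.

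The factors that put the helicase on DNA rose less. Cdt1, which brings the MCM ring to the origin, had values from 8.41 to 9.41 (median 9.19) in Ly6C+ MFs and from 9.28 to 9.74 (median 9.43) in Ly6C- MFs. The groups overlapped, and the difference was 0.40 ± 0.10 (adjusted p = 0.0016). Orc6 and Orc1 of the origin recognition complex differed by 0.40 and 0.28, and Cdc6, the ATPase that works with them, by 0.37. The range over these 4 licensing genes, 0.28 to 0.40, lay below that of the MCM genes, 0.80 to 1.90. Orc1 and Cdc6 were dim, however. Their highest group means, 5.39 and 6.57, lay below the median of all deposited values, 6.70. Prim1 (mean 5.15), Pole (5.39), Gins1 (5.92) and Pole2 (6.20) were among further genes below that median in WT day 2 Ly6C+ MFs. Sizes of differences are less certain where 1 of the groups is dim.

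Of the factors that activate the helicase, Gins1 was the largest at 1.20 and Gins3, a subunit of the same GINS complex, the smallest of the group at 0.17. Gins2, a further subunit, ran from 7.45 to 7.90 (median 7.64) in Ly6C+ and from 8.08 to 8.40 (median 8.26) in Ly6C- MFs, a difference of 0.59 ± 0.08 (adjusted p = 7.65e-08) without overlap. Mcm10 differed by 0.43, and Cdc45, which joins the MCM ring and GINS in the active helicase, by 0.35.

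Among polymerases and primase the same spread was seen. Prim1, the catalytic subunit of primase, went from 4.81 to 5.49 (median 5.18) in Ly6C+ MFs to 6.43 to 7.46 (median 6.64) in Ly6C- MFs and differed by 1.60 ± 0.14 (adjusted p = 1.16e-12). Pole, the catalytic subunit of the leading strand polymerase, differed by 1.40, its partner Pole2 by 1.24 and Pola1, the catalytic subunit of polymerase alpha, by 1.10. Pold1, the catalytic subunit of polymerase delta, differed by 0.44 and Pola2 by 0.36. Prim2, the large primase subunit, ran from 7.02 to 8.55 (median 7.49) in Ly6C+ and from 7.96 to 8.90 (median 8.38) in Ly6C- MFs. Its groups overlapped through replicate 5 of the Ly6C+ arrays, and it differed by 0.84 ± 0.15 (adjusted p = 1.82e-05).

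Pcna, the sliding clamp, had one of the smallest differences. Its values were 11.21 to 11.54 (median 11.36) in Ly6C+ and 11.30 to 11.66 (median 11.57) in Ly6C- MFs, which overlap, and it differed by 0.18 ± 0.07 (adjusted p = 0.035). With WT replicates 1 to 3 alone the difference was 0.02 (adjusted p = 0.91), and leaving out Ly6C+ replicate 4, 5 or 6 or Ly6C- replicate 2, 5 or 6 also ended the call. The clamp loader subunits Rfc3, Rfc4 and Rfc5 differed by 1.10, 1.07 and 0.56. The difference of Rfc3 depended on the replicates and was 0.56 with WT replicates 1 to 3 and 1.64 with 4 to 6. For Pcna and Tk1 a second probe set was present, and by the chromosomes of the genes of the 20 probe sets nearest in number, the probe set with the higher mean lay among genes of another chromosome than its own gene's in both cases. The values of Pcna and Tk1 are therefore uncertain, since signal from near-identical copies elsewhere in the genome cannot be told apart from the gene itself. The other probe sets, which lay among genes of the right chromosome, gave 0.19 for Pcna and 0.50 for Tk1 in place of 0.18 and 0.21.

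Lig1, the ligase that joins Okazaki fragments, ran from 6.53 to 6.87 (median 6.69) in Ly6C+ and from 7.58 to 7.91 (median 7.72) in Ly6C- MFs and differed by 1.02 ± 0.08 (adjusted p = 3.6e-13). Fen1, the nuclease that trims those fragments, differed by 0.38. Of the genes that supply nucleotides, Rrm1, the large subunit of ribonucleotide reductase, ran from 7.52 to 7.83 (median 7.65) in Ly6C+ and from 8.81 to 9.41 (median 9.005) in Ly6C- MFs, a difference of 1.39 ± 0.12 (adjusted p = 6.46e-13). Rrm2, its small subunit, differed by 1.18, Tyms, which makes thymidylate, by 0.72 and Tk1, which salvages thymidine, by 0.21. Tk1 thus stood lowest of these genes, also by its other probe set (0.50), and Rrm1 and Rrm2 stood highest.

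Chaf1b, a subunit of the chromatin assembly factor that loads histones behind the fork, ran from 7.58 to 8.52 (median 8.01) in Ly6C+ and from 8.28 to 8.95 (median 8.55) in Ly6C- MFs. It differed by 0.54 ± 0.11 (adjusted p = 5.85e-05), and the groups overlapped through Ly6C+ replicate 5. Chaf1a, its partner, differed by 0.52, and Uhrf1, which helps to copy DNA methylation, by 0.65.

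The regulators of entry into S phase did not all move one way. E2f1, a transcriptional activator, ran from 7.75 to 8.01 (median 7.96) in Ly6C+ and from 8.66 to 8.96 (median 8.72) in Ly6C- MFs and differed by 0.84 ± 0.08 (adjusted p = 7.54e-12). The cyclins Ccne1 and Ccne2, which activate Cdk2 at the G1/S transition, differed by 0.40 and 0.41. E2f2, a second activator of the same family, ran from 7.96 to 8.99 (median 8.22) in Ly6C+ and from 7.49 to 7.69 (median 7.65) in Ly6C- MFs. Every Ly6C- array lay below every Ly6C+ array, and E2f2 fell by 0.70 on the log2 scale (SE 0.11, adjusted p = 1.29e-06).

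**Figure D2:**
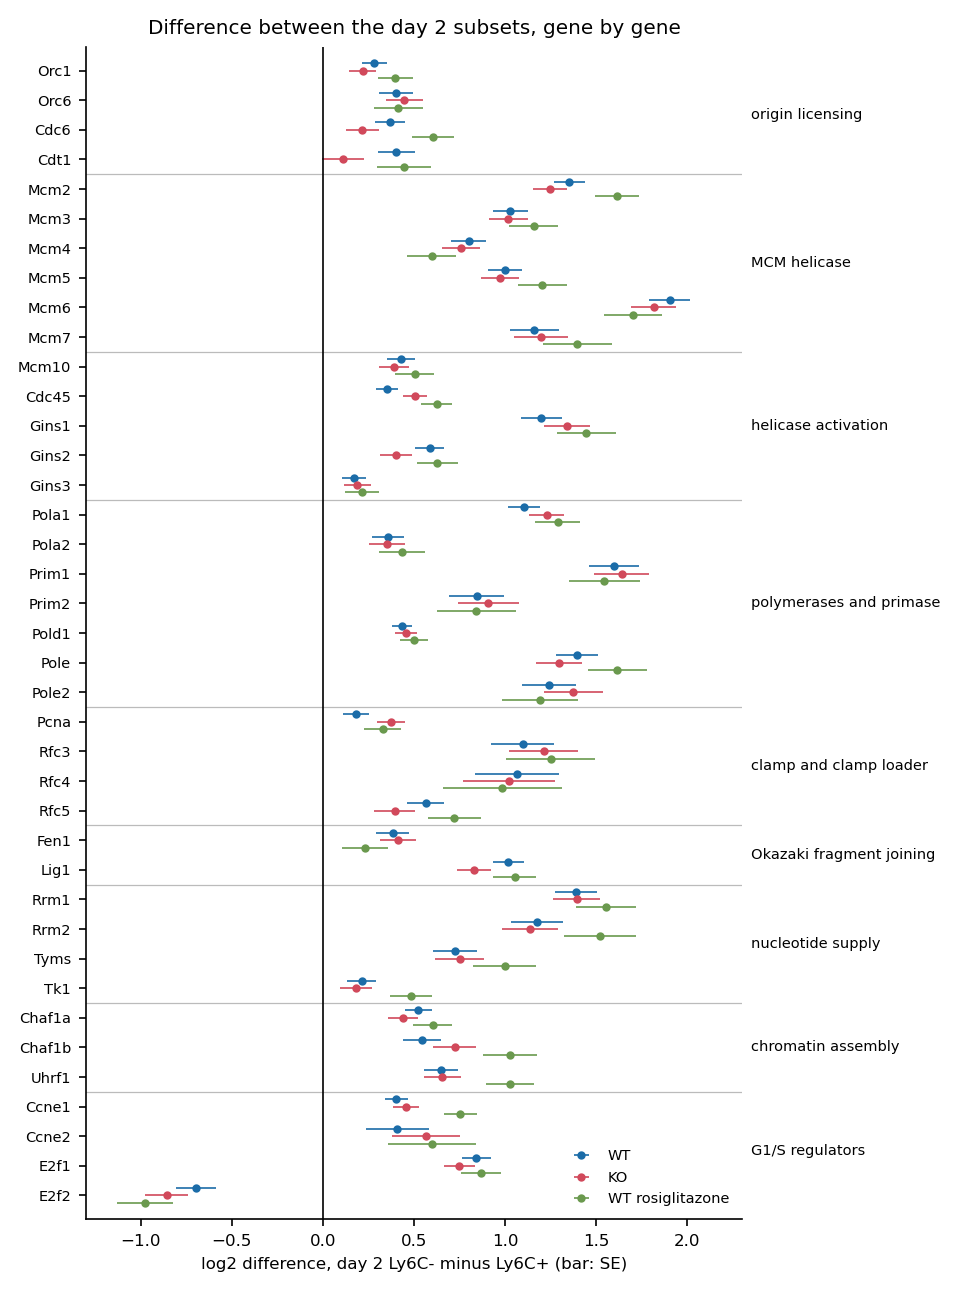
Log2 difference between day 2 Ly6C- and Ly6C+ MFs for each of the 39 genes, grouped by role, in untreated WT, KO and WT on rosiglitazone; points are fitted differences and bars their SE. All points lie right of 0 except those of E2f2, and Mcm6 has the largest difference in each of the 3 settings.

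The same comparison in KO mice gave 35 genes higher and 1 lower, against 19.8% and 18.6% of all genes, with a median of 0.72. Mcm6 had values of 7.22, 7.40, 6.94, 7.05 and 6.54 in KO Ly6C+ MFs and of 8.88, 8.81, 8.80, 8.78 and 8.95 in KO Ly6C- MFs. The groups were again separate, by 1.81 ± 0.12 (adjusted p = 1.83e-15). Cdt1 (0.11, adjusted p = 0.43), Cdc6 (0.22, adjusted p = 0.051) and Tk1 (0.18, adjusted p = 0.091) did not pass, although the other probe set of Tk1 did (0.39, adjusted p = 0.0069). E2f2 fell by 0.86 (adjusted p = 1.9e-07), with 8.39, 8.29, 8.25, 8.39 and 8.10 in Ly6C+ and 7.51, 7.56, 7.52, 7.40 and 7.17 in Ly6C- MFs.

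In WT mice on rosiglitazone 35 genes were higher and E2f2 was lower, against 14.6% and 8.68% of all genes, with a median of 0.84. Mcm6 had 7.06, 7.16 and 7.01 in Ly6C+ and 8.41, 8.98 and 8.95 in Ly6C- MFs, which did not overlap. Mcm6, Pole, Mcm2, Rrm1, Prim1 and Rrm2 had the largest differences, from 1.52 to 1.70. E2f2 had 8.53, 8.98 and 8.42 in Ly6C+ and 7.65, 7.84 and 7.53 in Ly6C- MFs and fell by 0.97. Gins3, Fen1 and Ccne2 did not pass. In all, 32 genes were higher in Ly6C- MFs in all 3 settings. A test of whether the subset difference itself differed between genotypes called none of the 39 genes (0.01% of all genes, limma), and 0 had an unadjusted p under 0.05. The like test for rosiglitazone called none of the 39 (0.015% of all genes), and 4 had an unadjusted p under 0.05, namely Ccne1, Cdc45, Chaf1b and Uhrf1, each with a larger subset difference on the drug by 0.27 to 0.48.

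Between day 1 and day 2 in Ly6C+ MFs few of the genes changed. In WT, 6 were higher at day 2 and none was lower, a share of the 39 above the 6.51% of all genes that were higher, with a median difference of 0.12. Pole2 rose by 0.72, Mcm6 by 0.55, Mcm7 by 0.49, Orc6 by 0.46, Pola1 by 0.33 and Pcna by 0.27. Mcm6 had 6.46, 6.23, 6.16 and 6.30 on the day 1 arrays, all below the 6.67 to 7.15 of day 2. The count depended on single arrays, since 3 genes passed without day 1 replicate 4 or day 2 replicate 1 or 2. It was 10 with WT day 2 replicates 1 to 3, where Rfc4 and Rfc5 were lower, and 5 with replicates 4 to 6, where Rfc4 was higher by 0.96. In KO, 6 genes were higher (6.06% of all genes), with Pole2 (0.84), Mcm6 (0.72), Rrm1 (0.52), Mcm3 (0.42), Mcm2 (0.41) and E2f1 (0.27), and 3 passed without day 1 replicate 4. The test of the difference between genotypes called none of the 39 genes (0.01% of all genes, limma), and 1, Rfc5, had an unadjusted p under 0.05.

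Day 4 MFs, labelled Ly6C+, were then compared with day 2 Ly6C+ MFs. In WT, 31 genes were higher and E2f2 was lower, against 23.8% and 26% of all genes, with a median of 0.72. Rrm2 rose by 1.80, Rrm1 by 1.73, Mcm6 by 1.58, Pole by 1.52, Prim1 by 1.46 and Mcm7 by 1.45. Rrm1 had 9.37, 9.44, 9.37 and 9.35 at day 4, far above its 7.52 to 7.83 at day 2. Orc1, Orc6, Cdt1, Pcna, Fen1, Chaf1b and Ccne2 did not pass. With WT day 2 replicates 1 to 3 alone 31 were higher and 2 lower, with Pcna lower by -0.27 and Ccne2 higher by 0.59, and with replicates 4 to 6 alone 29 were higher and 1 lower. Rfc4 differed by 1.82 with the first set and by 0.40 with the other, and Prim2 by 1.22 and 0.41. In KO, 35 were higher and E2f2 was lower (22.3% and 22.5% of all genes), with Rrm1 (1.66), Pole (1.59), Rrm2 (1.56), Mcm7 (1.42), Mcm6 (1.37) and Prim1 (1.33) in the lead. As the day 4 arrays carried low Ly6c and high Adgre1 levels, day and subset cannot be told apart in this comparison.

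Set against day 2 Ly6C- MFs, day 4 MFs had some of the genes higher and some lower. In WT, 5 of the 39 genes were higher and 11 were lower, where 14.1% and 15.2% of all genes were. The share higher was close to that of all genes, and the share lower was above it. The median was -0.03. Of nucleotide supply, 3 of 4 genes were higher and none was lower. Tk1 had 8.33, 8.50, 8.22 and 8.47 at day 4 against 7.70, 7.47, 7.47, 7.41, 7.65 and 7.68 in Ly6C- MFs, which did not overlap, and rose by 0.81 ± 0.09 (adjusted p = 1.1e-09, also 0.81 by its other probe set). Rrm2 rose by 0.63 and Rrm1 by 0.34 (adjusted p = 0.043). Of the helicase activators, Mcm10 rose by 0.31 and Gins3 by 0.28, while Gins1 fell by 0.41.

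Of the genes that license origins 3 of 4 were lower, and of the MCM genes 4 of 6, with none higher in either role. Mcm7 differed by 0.29 and Mcm5 by -0.11, which did not pass. Mcm2 had 8.28, 8.21, 8.09 and 8.25 at day 4, all below the 8.70 to 9.23 of day 2 Ly6C- MFs, and fell by 0.65 (SE 0.09, adjusted p = 4.82e-07). Mcm4 fell by 0.37, Mcm3 by 0.33 and Mcm6 by 0.32 (adjusted p = 0.047). Cdt1 fell by 0.35, Orc6 by 0.33 and the dim Orc1 by 0.23. Cdt1 had 9.10, 9.15, 9.03 and 9.18 at day 4, all below its 9.28 to 9.74 in Ly6C- MFs and close to its 8.91 to 9.07 at day 1. Outside these roles Chaf1b fell by 0.43, Pcna by 0.34 (0.36 by its other probe set) and Fen1 by 0.26. None of the 7 polymerase and primase genes and none of the 4 G1/S regulators passed in either direction. In all 16 genes passed, and 10 did without WT day 4 replicate 3. With WT replicates 1 to 3 alone 8 genes were higher and 9 lower, and with replicates 4 to 6 alone 3 were higher and 8 lower. Mcm3 and Mcm6 lost the call with the first set, and Orc1, Orc6, Gins1, Gins3, Fen1, Rrm1 and Rrm2 lost it with the other, where Cdt1 was the 1 licensing gene called and Tk1 and Tyms the nucleotide supply genes called. Mcm6 and Rrm1 also lost it without any 1 of several arrays. Rfc4, at 0.04 over all replicates, was higher by 0.63 with replicates 1 to 3 (adjusted p = 0.0002) and lower with -0.55 with replicates 4 to 6 (adjusted p = 0.0046).

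KO mice gave 5 genes higher and 7 lower in that comparison, against 13.1% and 11.8% of all genes. The share higher was again close to that of all genes. Without KO day 4 replicate 3, 7 genes passed in all. Tk1 rose by 0.80, Tyms by 0.46, Mcm10 by 0.38, E2f2 by 0.36 and Gins3 by 0.29. By role, 1 of 4 licensing genes and 3 of 6 MCM genes were lower, and 2 of 4 nucleotide supply genes were higher. Mcm2 fell by 0.64, Mcm6 by 0.45, Pcna by 0.44, Gins1 by 0.39, Chaf1b by 0.38, Cdt1 by 0.34 and Mcm3 by 0.34. Of the genes called, 3 were higher and 7 lower in both genotypes, and none went in opposite directions. The comparisons of the genotypes do not share arrays. The test of the difference between genotypes called none of the 39 genes and 0% of all genes (limma), and 1, Rfc3, had an unadjusted p under 0.05.

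**Figure D3:**
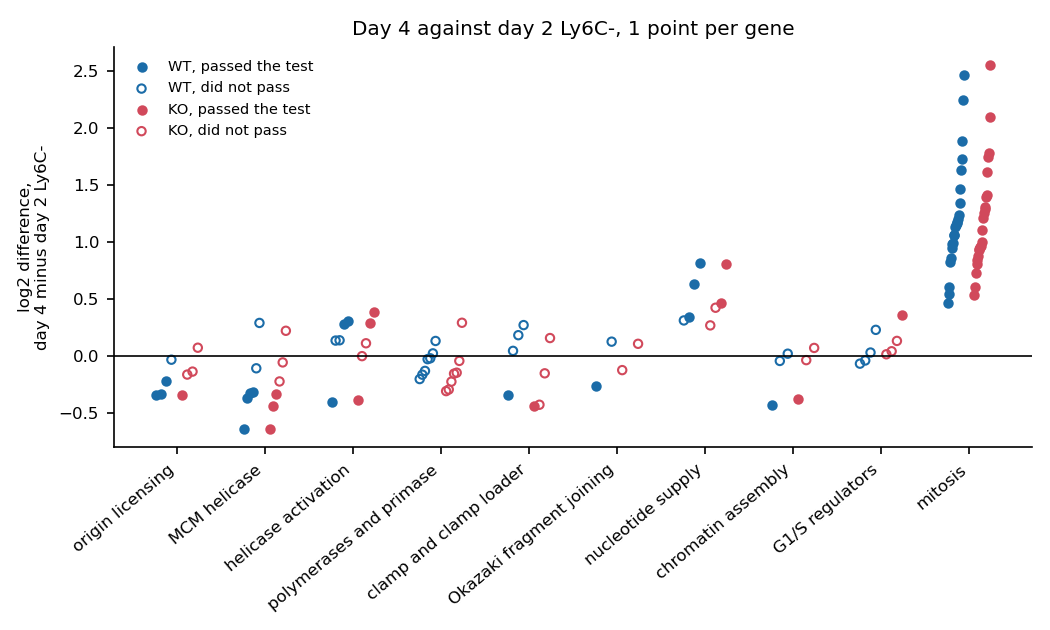
Log2 difference between day 4 MFs and day 2 Ly6C- MFs, 1 point per gene, by role of the 39 genes and for 23 mitosis genes, in WT (blue) and KO (red); filled points passed the test at an adjusted p under 0.05. Licensing and MCM genes lie mostly below 0, nucleotide supply genes above 0 and all 23 mitosis genes above 0.

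Genes of mitosis behaved differently over the same interval. Of the 23 measured, 17 were higher in WT day 2 Ly6C- than Ly6C+ MFs (median 0.62, against 22.2% of all genes), where the replication genes had a median of 0.65. Against day 2 Ly6C- MFs, however, all 23 were higher at day 4 in WT (median 1.15, against 14.1% of all genes) and in KO (median 1.10, against 13.1% of all genes). Ccnb2, the mitotic cyclin B2, rose by 2.46 in WT, Plk1, a mitotic kinase, by 2.25 and Kif20a, a kinesin of cytokinesis, by 1.89. Across the 44 arrays the mean level of the 39 genes and that of the mitosis genes had a Pearson correlation of 0.76, and of 0.65 once group means were removed. The arrays share groups, so this is a description. KO day 4 replicate 2 was low in both lists, at 7.64 for the 39 genes and 7.19 for mitosis.

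**Figure D4:**
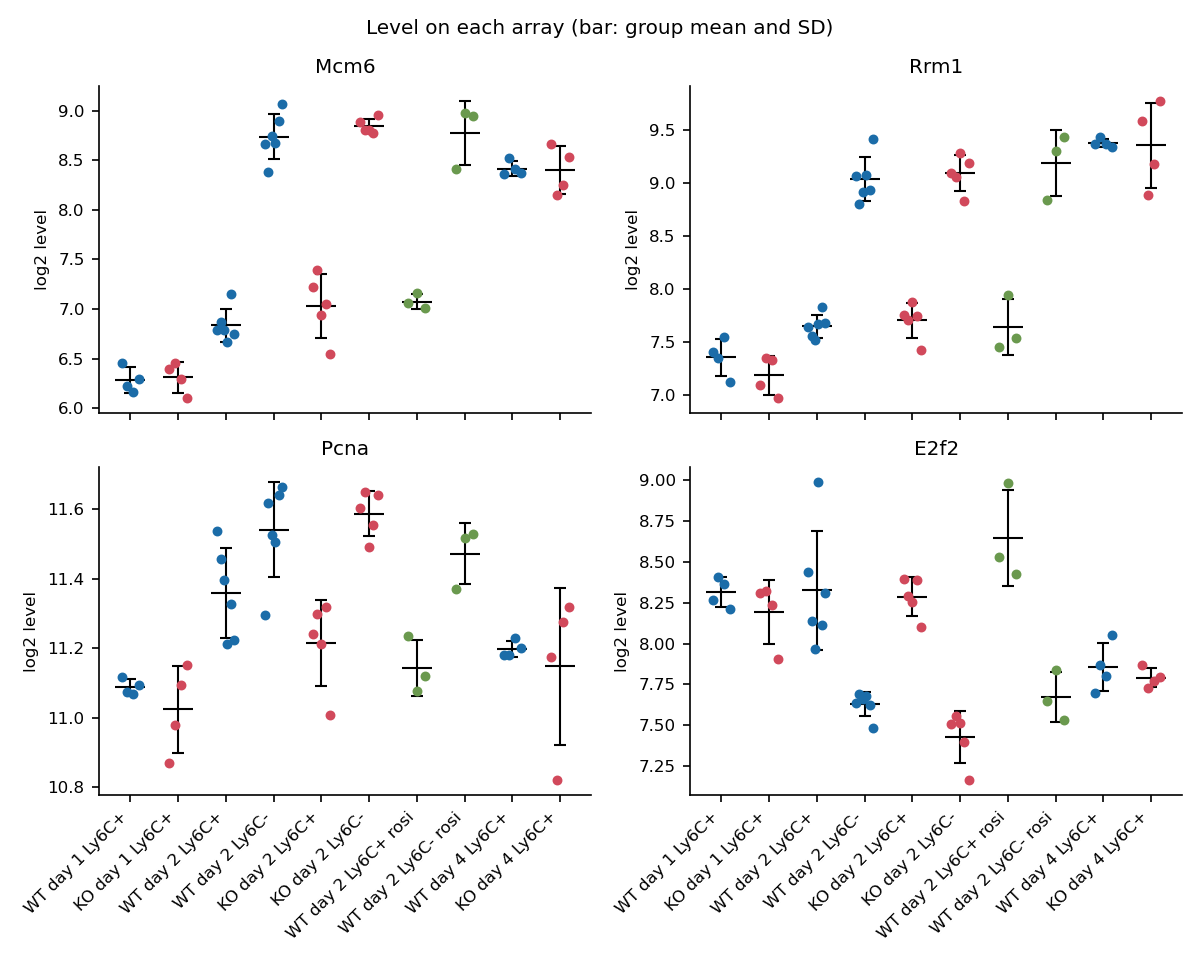
Log2 level of Mcm6, Rrm1, Pcna and E2f2 on each array, by group (blue, WT; red, KO; green, WT on rosiglitazone), with the group mean and SD as bars; the vertical axes differ and do not start at 0. Mcm6 and Pcna are lower at day 4 than in day 2 Ly6C- MFs, Rrm1 is higher, and E2f2 is lowest in day 2 Ly6C- MFs.

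KO and WT MFs were compared within each day and subset. None of the 39 genes passed in any of the 4 comparisons (limma, adjusted p under 0.05), where 0.0351% of all genes passed at day 1, 1.88% in day 2 Ly6C+, 0.201% in day 2 Ly6C- and 0.0652% in day 4 MFs. At an unadjusted p under 0.05 there were 0, 2, 1 and 0 genes. The differences of the 39 genes lay between -0.17 and 0.15 at day 1 and between -0.14 and 0.15 at day 4. At day 2 they ran from -0.26 to 0.43 in Ly6C+ and from -0.20 to 0.55 in Ly6C- MFs, with Rfc3 at the upper end of both. Its difference in Ly6C- MFs had a 95% interval from 0.18 to 0.91. The count of Ly6C- MFs became 1 without WT replicate 6.

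The 2 sets of WT day 2 replicates differed for the clamp loader and for primase. Rfc4 had 7.17, 6.97 and 6.89 in Ly6C+ replicates 1 to 3 and 8.36, 8.71 and 8.24 in replicates 4 to 6, and 8.29, 8.09 and 8.23 against 9.30, 9.14 and 9.70 in Ly6C- MFs. The sets did not overlap in either subset, and the KO values, 7.94 to 8.35 in Ly6C+ and 8.79 to 9.55 in Ly6C-, lay above those of replicates 1 to 3. Rfc3 had 7.17, 7.28 and 7.33 in Ly6C- replicates 1 to 3 and 8.25, 8.06 and 8.69 in replicates 4 to 6, with no such gap in Ly6C+ MFs. With replicates 1 to 3 as the only WT arrays, KO against WT called 5 genes in Ly6C+ MFs (Rfc4 1.06, Prim2 0.52, Rfc3 0.43 and Rfc5 0.38 higher, Pcna lower with -0.25) and 4 in Ly6C- MFs (Rfc3 1.08, Rfc4 0.89, Pole2 0.47 and Prim2 0.46 higher). With replicates 4 to 6 it called none in either subset. The sets also differ in Lyz2, as given above, which in replicates 1 to 3 was at the level of the KO arrays. What set them apart, their genotype included, cannot be told from the labels.

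**Figure D5:**
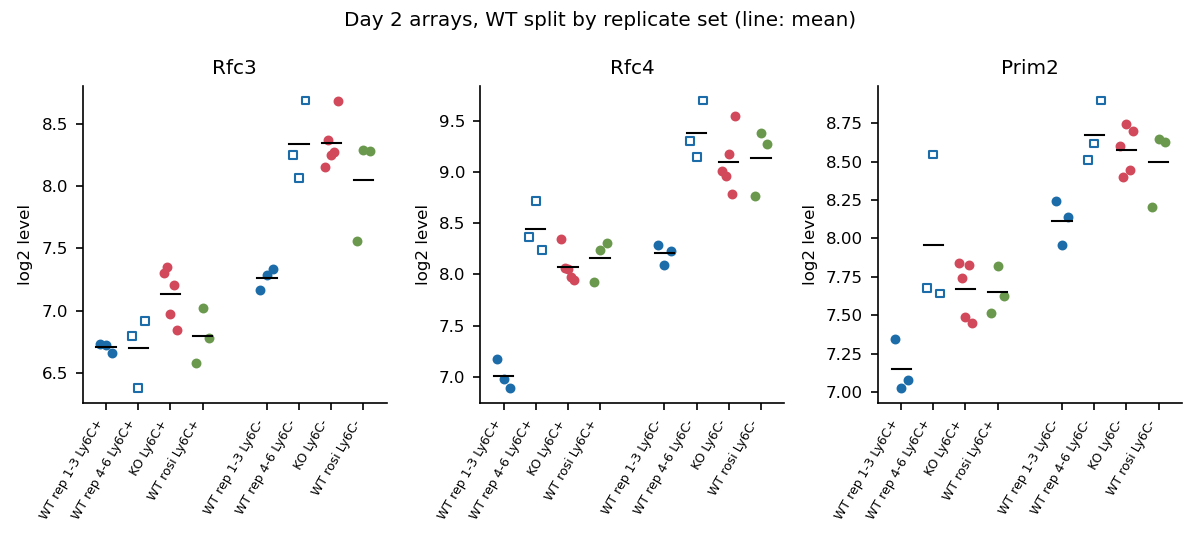
Log2 level of Rfc3, Rfc4 and Prim2 on the day 2 arrays, with untreated WT split into replicates 1 to 3 (filled circles) and 4 to 6 (open squares) beside KO and WT on rosiglitazone; lines are means and the vertical axes differ. Rfc4 of replicates 1 to 3 lies below all other arrays of its subset.

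Rosiglitazone was compared with no treatment in WT day 2 MFs. In Ly6C+ MFs none of the 39 genes was higher and 3 were lower, a share near the 5.6% of all genes that were lower. Chaf1b had 7.63, 7.32 and 7.33 on the drug and 7.58 to 8.52 (median 8.01) without it, which overlap at 1 array, and fell by 0.59 (SE 0.13, adjusted p = 0.0027). Uhrf1 fell by 0.38 (adjusted p = 0.025) and Ccne1 by 0.27 (adjusted p = 0.02). The count was 1 without treated replicate 1 and 5 without untreated replicate 4. It was 11 against WT replicates 1 to 3, of which 3 (Rfc4, Prim2 and E2f2) were higher, and 1, Chaf1b, against replicates 4 to 6. A fit of the 2 groups alone called 0 genes of all 19938. In Ly6C- MFs none passed (0.0351% of all genes, limma), and 2, Tk1 and Fen1, had an unadjusted p under 0.05. Against WT replicates 1 to 3 alone Rfc4 (0.93), Rfc3 (0.78) and Prim2 (0.38) were higher there, and against replicates 4 to 6 alone none passed.

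Further genes of the pathway were read from lists that hold none of the 39. Of 33 other replication factors, 22 were higher and 2 lower in WT day 2 Ly6C- than Ly6C+ MFs, with a median of 0.35. In that comparison 22.2% of all genes were higher and 23% lower, which the counts of each list below are read against. Rnaseh2b, a subunit of the enzyme that removes RNA from DNA, was higher by 1.01, Gins4, the remaining GINS subunit, by 0.93, Tipin, of the fork protection complex, by 0.92 and Wdhd1 by 0.85. Of 8 other chromatin assembly genes 6 were higher, with Asf1b, a histone chaperone, at 1.37 and Hells, a chromatin remodeller, at 1.10. Of 21 other G1/S regulators 12 were higher and 2 lower, with Ccna2, the S phase cyclin A2, at 1.89 and E2f6, a repressor of the E2F family, at 0.93. Of 10 other nucleotide supply genes 5 were higher, led by Dctpp1 (0.70) and Paics (0.67), and 2 were lower, Samhd1 (-0.47), which degrades dNTPs, and Dck (-0.45). These 2 genes were named after their values were seen. Of 6 CDK inhibitors 1 was higher, Cdkn2c (0.41), and 2 were lower, Cdkn1b (-0.69), which encodes p27, and Cdkn2d (-0.30), shares close to those of all genes. At day 4 against day 2 Ly6C- MFs, Samhd1 was higher by 0.72 and Cdkn1b by 0.64.

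How closely each of the 39 genes followed the mean of the others was described by a Pearson correlation over the 44 arrays, which share their groups. The median was 0.91, and the lowest were E2f2 at -0.82, Cdt1 at 0.51, Pcna at 0.59 and Tk1 at 0.61. After group means were removed the median was 0.53 and the range -0.06 to 0.81, so most of the likeness lay between groups.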

How the data were processed

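Total RNA from sorted MFs was hybridised to one-colour Affymetrix mouse gene arrays. The deposited table holds log2 expression values, which the authors made with RMA (per the labels), that is background correction, quantile normalization and a summary over the probes of each of 35556 probe sets. RMA gives arrays a similar distribution, so a change shared by most genes would not be seen. Array medians lay between 6.64 and 6.77, no 2 arrays held identical values, and precision is limited by the number of arrays. Of the probe sets, 21789 carried 1 gene symbol, 1621 several and 12146 none in the platform annotation. Probe sets with 1 symbol gave 19938 genes, with the highest mean taken for the 999 genes that had several.

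One mean per group was fitted over the 44 arrays with lmFit and eBayes of limma 3.58.1 in R 4.3.3, with 15 comparisons of groups and 4 interactions. Every adjusted p in the text is from this limma fit, with Benjamini-Hochberg adjustment over all genes and a threshold of 0.05, and each ± after a difference is an SE. The script was tested on simulated data first. Promoters were searched with Python 3.11.15. Members and gene lists were chosen with earlier results of these data known. In each role the gene with the highest mean, and the genes with the largest and smallest WT subset difference, are described in full (11 genes). Up to 6 of the largest differences are named per comparison and up to 4 per other list. Values by array of Prim1, Mcm2, Tk1, Rfc3 and Rfc4 were added after they were seen.

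Replicate numbers were checked as pairs by correlating the deviations of same-numbered arrays from their group means. Every pair exceeded 0.1 only between the rosiglitazone subsets (0.13 to 0.44, 3 pairs), and the paired fit there called 37 genes in place of 36. Between the untreated WT day 2 subsets the pairs ran from 0.01 to 0.60 (6 pairs), so some same-numbered arrays there deviated together. The alternatives were subtracting array medians, leaving out genes whose highest group mean is at or below 6.70 (37 of the 39 stay, some of them only through the groups where they are high), averaging probe sets, eBayes with trend and robust options, fitting only the compared groups, a replicate block, each set of WT day 2 replicates, and leaving out each array.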

Additional observations from a re-analysis of the deposited data

Results flagged for a closer look

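Within groups of 4 to 6 arrays, an array far from the others was looked for in 96 sets of values, and 5 were found. For independent sets chance gives about 1 in 20, which is close to the number found. The sets here share arrays and genes, however, so this share cannot tell whether chance set these arrays apart. The mean level of the 39 genes was 7.26 in WT day 2 Ly6C+ replicate 5, with the next array at 7.13, and 8.18 in WT day 2 Ly6C- replicate 6, with the next at 7.84. Gins2 was 8.44 in KO day 2 Ly6C- replicate 5 (next 8.19), Lig1 was 6.51 in WT day 1 replicate 2 (next 6.81) and E2f2 was 7.49 in WT day 2 Ly6C- replicate 6 (next 7.62).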

How the results depend on the processing

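Of the called differences of the 11 genes described in full, recomputed under each alternative, 978 values kept their direction and call, 76 lost the call and 0 reversed. Outside those genes, Rfc4 changed direction with the set of WT day 2 replicates, being lower (-0.47) with 1 to 3 and higher (0.96) with 4 to 6 for WT day 2 against day 1, and higher (0.63) and lower (-0.55) for WT day 4 against day 2 Ly6C- MFs. Counts of genes called stayed within 1.5 times in 329 recomputations and moved further in 24. Fitting only the compared groups gave 3 genes for WT day 2 against day 1, 11 for KO day 2 against day 1 and 0 for rosiglitazone in Ly6C+ MFs. The replicate block gave 15 genes for KO day 2 against day 1, 1 for KO against WT in day 2 Ly6C- MFs, and 8 and 2 for rosiglitazone in Ly6C+ and Ly6C- MFs. Those numbers did not pair the arrays by the check used. WT day 2 replicates 1 to 3 alone gave 10 genes for WT day 2 against day 1, 5 and 4 for KO against WT in Ly6C+ and Ly6C- MFs, 11 and 3 for rosiglitazone, and 3 and 2 for the genotype interactions with day 2 against day 1 and with day 4 against day 2 Ly6C- MFs. Replicates 4 to 6 alone gave 1 gene for rosiglitazone in Ly6C+ MFs and a median of 0.60 for WT day 4 against day 2 Ly6C+ MFs. Leaving out single arrays gave 3 to 7 genes for WT and 3 to 6 for KO day 2 against day 1, 10 to 16 for WT and 7 to 12 for KO day 4 against day 2 Ly6C- MFs, 0 to 1 for KO against WT in day 2 Ly6C- MFs and 1 to 5 for rosiglitazone in Ly6C+ MFs. The median difference then ranged from 0.76 to 0.99 for the rosiglitazone subsets, from 0.58 to 0.79 for KO day 4 against day 2 Ly6C+ MFs and from 0.023 to 0.17 for rosiglitazone in Ly6C- MFs. Subtracting array medians changed the split of all genes to 4707 higher and 1591 lower in the KO subsets (3948 and 3713 before), 3223 and 1313 in the rosiglitazone subsets (2904 and 1730) and 5282 and 3394 for WT day 4 against day 2 Ly6C+ MFs (4739 and 5182). The causes were not tested.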
